A study of Rattus norvegicus with 16 samples.

Results

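The CpG-dense, highly methylated windows of the rat amygdala methylome are stretches of 1 kb in which many CpG dinucleotides lie close together and those measured are highly methylated. They were chosen among windows on chromosomes 1 to 20 that held at least 3 CpG cytosines (sites) read 10 or more times in all 10 libraries of 1 library set. A window was kept if at least 17 distinct CpGs were listed in it and if its mean methylation level over the 4 high-fat P7 libraries was at least 80%. Of 86065 windows, 12518 (14.5%) met the rule. They were 56.8% of the 22053 windows with at least 17 listed CpGs and 23.6% of the 53060 windows at 80% or more, and they held 108227 of the 581521 sites. A CpG without a methylated read is not listed, so windows of unmethylated CpGs can drop out. The 56.8% is therefore not a share of all CpG-dense windows. The median was 22 listed CpGs and 8 sites per window, so a level covers only part of a window's CpGs.

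The study profiled genomic DNA of the amygdala, a forebrain region of emotion and stress responses, from female Long-Evans rats by reduced representation bisulfite sequencing (RRBS), which reads cytosine methylation in a CpG-rich fraction of the genome. Offspring came from dams on a control diet or on a high-fat diet given from before mating to the end of lactation. They were taken at postnatal day 7 (P7) or 90 (P90), and none ate the high-fat diet. Those of P90 were weaned to control diet, and the stereotaxic range cut for the amygdala differed between the ages. The groups used here were control P7 (4 libraries), high-fat P7 (4 libraries) and control P90 (2 libraries), all of the same library set by the style of their titles. The other 6 of the 16 libraries (2 control P90 and all 4 high-fat P90) stood apart and enter only where stated. The labels do not say whether libraries of a group came from separate litters, so p-values measure the spread between these libraries only. That spread was taken mostly from all windows together, and for sites almost wholly from all sites together.

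Methylation of the cytosine in CpG is copied at cell division by the maintenance methyltransferase DNMT1 and set by DNMT3A and DNMT3B. Most CpGs of a mammalian genome are methylated, whereas CpG islands, dense clusters of CpGs that often hold a promoter, are as a rule unmethylated. Dense CpGs that are methylated in somatic tissue are known from gene bodies, from repeats and from promoters of genes that are used in the germline and silenced elsewhere. Methylated cytosine mutates readily to thymine, and CpG is rarer than other dinucleotides in mammalian genomes. In bulk tissue a level is a mean over cell types, and a change in the level within cells and a change in the mix of cells cannot be told apart.

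Promoters were sought among these windows by matching the spacing of CpGs, because the sources used here hold promoter sequences of RefSeq for another build (GRCr8) than that of the files (Rnor_6.0). Of 222 placements above the score used, 208 (93.7%) fell on the chromosome that RefSeq gives for the gene, which the matching had not used. Promoters of 188 genes were placed at a unique position on their own chromosome, and 39 of them lay in the dense, highly methylated windows. A CpG without a methylated read is not listed in the files, so unmethylated promoters can hardly be placed, and 39 of 188 is not a share of all promoters. Of the 39 genes, 25 were protein-coding and 14 were lncRNAs. The upstream sequences of 5 of them are printed. Ddx4, Spaca1 and Six6os1 are examples picked after their values were seen, and they do not stand for the 39. Fgd3 and Fbxo40 are those of the 39 with a gene symbol whose windows passed for age. Each sequence shows the 250 bases before the annotated start on the gene's strand (GRCr8, RefSeq), 5′ to 3′. Capitals mark the CpGs that were read at least 10 times in all 10 libraries.
Ddx4: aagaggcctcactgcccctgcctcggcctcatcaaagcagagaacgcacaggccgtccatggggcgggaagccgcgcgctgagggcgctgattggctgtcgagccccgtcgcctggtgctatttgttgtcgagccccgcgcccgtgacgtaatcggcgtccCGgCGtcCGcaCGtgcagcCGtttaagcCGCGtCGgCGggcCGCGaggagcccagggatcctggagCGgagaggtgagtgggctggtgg
Spaca1: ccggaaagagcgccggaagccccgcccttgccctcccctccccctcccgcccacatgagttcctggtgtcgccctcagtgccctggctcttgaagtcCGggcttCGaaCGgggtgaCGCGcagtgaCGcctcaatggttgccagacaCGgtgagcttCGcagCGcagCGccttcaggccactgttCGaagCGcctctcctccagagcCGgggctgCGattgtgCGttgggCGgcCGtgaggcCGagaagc
Six6os1: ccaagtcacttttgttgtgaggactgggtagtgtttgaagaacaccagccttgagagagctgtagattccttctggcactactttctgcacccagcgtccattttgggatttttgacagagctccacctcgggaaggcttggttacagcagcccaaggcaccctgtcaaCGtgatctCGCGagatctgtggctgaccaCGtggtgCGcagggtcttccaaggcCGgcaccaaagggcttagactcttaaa
Fgd3: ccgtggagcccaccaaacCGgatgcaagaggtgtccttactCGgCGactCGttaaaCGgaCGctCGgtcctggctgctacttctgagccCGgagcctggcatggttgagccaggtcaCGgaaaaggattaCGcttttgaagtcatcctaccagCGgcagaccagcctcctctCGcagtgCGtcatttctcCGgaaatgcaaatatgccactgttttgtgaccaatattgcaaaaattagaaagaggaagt
Fbxo40: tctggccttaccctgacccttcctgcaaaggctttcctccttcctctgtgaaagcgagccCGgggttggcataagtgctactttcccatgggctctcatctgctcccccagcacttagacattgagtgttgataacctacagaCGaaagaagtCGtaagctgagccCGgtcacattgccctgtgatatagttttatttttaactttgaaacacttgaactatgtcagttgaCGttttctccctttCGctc
In the sequence shown, 12 of 30 CpGs of Ddx4 and 18 of 24 of Spaca1 were read at this depth, and 6 of 8 of Six6os1, 14 of 15 of Fgd3 and 6 of 7 of Fbxo40. Ddx4, Spaca1 and Six6os1 lie on the minus strand, and Fgd3 and Fbxo40 on the plus strand. The placements of Ddx4, Fbxo40 and Six6os1 rest on lower scores (13.6, 13.3 and 13.0) than those of Spaca1 (23.4) and Fgd3 (18.1). Of all placements scoring 12 to 13, 86.0% fell on the gene's own chromosome, and of those scoring 13 to 14, 94.1%.

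High levels of these promoters follow from the rule and are given as a description. Ddx4, an RNA helicase that marks germ cells, was at 90.4% or more in every library. Over its 14 sites in chr2:44504001-44505000 (Rnor_6.0; 261 to 879 reads per library) the level was 93.7%, 94.6%, 93.9% and 93.7% in control P7, 96.2%, 95.6%, 95.2% and 90.4% in high-fat P7 and 95.6% and 94.8% in control P90. The groups overlapped, and no site of the 14 passed for age. Along the promoter the control P7 level of the single sites ranged from 81.9% to 99.04%.

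Spaca1, which encodes a protein of the sperm acrosome, had the most sites read of the 39 promoters, 25 at 21 of its 29 CpGs in chr5:49439001-49440000 (412 to 1135 reads). Its level was 90.6%, 77.7%, 87.4% and 89.5% in control P7, 92.2%, 92.6%, 93.8% and 88.9% in high-fat P7, and 92.5% and 87.5% in control P90. Control P7 replicate 2 was the lowest of the 10 libraries, and the groups overlapped. Six6os1, a component of the synaptonemal complex of meiosis, stood lower, at 79.6% ± 2.39 (SD, n = 4) in control P7 over 18 sites of chr6:95797001-95798000, with 82.4% and 80.3% in control P90. Its sites were the most uneven of the 5 promoters, from 36.4% to 99.1% in control P7.

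Among the other promoters with a gene symbol, the highest were those of Ube2d2b, a ubiquitin-conjugating enzyme of the testis, at 97.6% ± 3.08 (SD, n = 4) in control P7, and Tuba3b, an alpha-tubulin, at 96.8% ± 0.729. Dnajc5g, a cysteine-string protein, was at 92.2% ± 1.87, Fgf6, a growth factor of muscle, at 89.4% ± 1.36, and Klhl41, a protein of the muscle sarcomere, at 89.5% ± 3.66. Tas1r2, a subunit of the sweet taste receptor, was at 88.8% ± 2.24, Rbm44, an RNA-binding protein, at 88.2% ± 2.22, and Ceacam16, a protein of the inner ear, at 86.1% ± 2.04. Bhmt, the betaine-homocysteine methyltransferase of liver and kidney, was at 82.8% ± 4.54. Ccer1 was the lowest of the 39, at 77.2% ± 2.06. Levels of all 39 in control P7 ran from 77.2% to 97.6% with a median of 88.8%, and 36 of them were at 80% or more.

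Tenm3, a teneurin of neuronal wiring, varied most between the control P7 libraries among the 39 promoters. Over its 7 sites in chr16:46423001-46424000 (77 to 298 reads) it was 96.6%, 77.6%, 88.8% and 68.1% in control P7, 92.6%, 80.2%, 72.9% and 96.1% in high-fat P7 and 94.5% and 90.4% in control P90. The span was wide in both P7 groups, and the P90 libraries lay within the range of control P7. Its window did not pass for age (adjusted p = 0.535, moderated logistic model). For comparison, 45 of the 188 placed promoters were under 20% in control P7, such as that of Pomc, the precursor of melanocortins and beta-endorphin, at 9.31%.

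Lists of germline, imprinted, synaptic, myelin and stress or energy-balance genes could be examined only where a promoter was placed, which was the case for 1, 3, 0, 0 and 1 of them. Of the germline list Ddx4 alone was placed, and it lies in the dense, highly methylated windows. The promoters of Gnas, Igf2r and Peg10 of the imprinted list and of Pomc were placed in other windows, at 25.6%, 33.3%, 35.4% and 9.31% in control P7. None of the 18 synaptic or 12 myelin genes was placed. The motif CCGG, which is its own reverse complement, stood in all 39 promoter sequences of 300 bases and in 53.0% of the 27457 in the RefSeq table (1 per gene). It also stood in all 45 placed promoters under 20%, so it was shared by placed promoters of high and low level. A promoter could be placed only where RRBS had read its CpGs, and the 53.0% covers promoters read or not. The shares are therefore not alike and say nothing particular about these windows. The motif GGCGGGA (or TCCCGCC on the other strand) stood in 5 of the 39, among them Ddx4 and Spaca1, in 7 of the 45 under 20%, and in 11.2% of all. TCACGTGA, also its own reverse complement, stood in 0 of the 39 and in 0.867% of all.

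**Figure D1:**
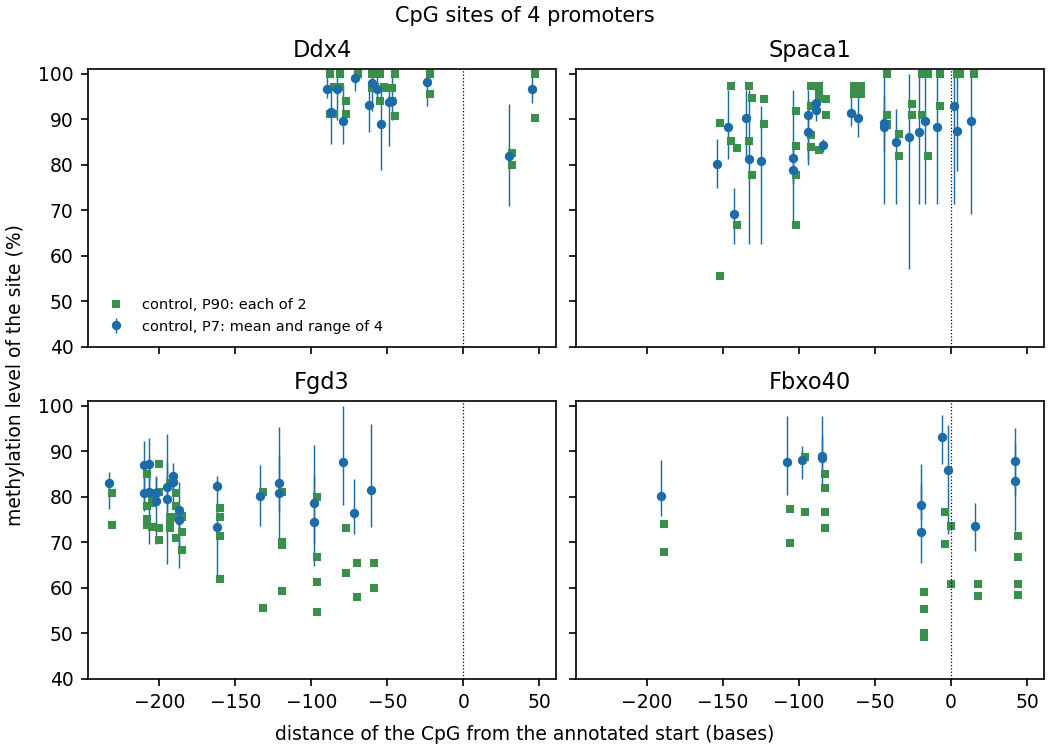
Methylation level (%) of each CpG site of 4 promoters by distance from the annotated start in bases; circles and bars give the mean and the range of the 4 control P7 libraries, and squares each of the 2 control P90 libraries. The sites of Ddx4 stay high at both ages, and both P90 libraries lie below all P7 libraries at 10 of the 12 sites of Fbxo40.

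The windows differed little between libraries. Their mean level was 91.1%, 90.4%, 90.5% and 90.8% in control P7 (90.7% ± 0.330, SD, n = 4), 91.3%, 90.6%, 90.0% and 90.5% in high-fat P7 (90.6% ± 0.537, SD, n = 4), and 90.2% and 90.1% in control P90. The P90 libraries were both below the 4 control P7 libraries (mean difference -0.549 points) and within the range of high-fat P7. Over all windows the mean was 76.1% ± 0.828 (SD, n = 4) in control P7 and 76.9% and 77.0% in control P90. The high-fat P7 level was used to choose the windows and is a description. In control P7, which the rule did not use, the windows ran from 67.5% to 99.1% with a median of 91.7%, and 12247 of the 12518 were at 80% or more.

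**Figure D2:**
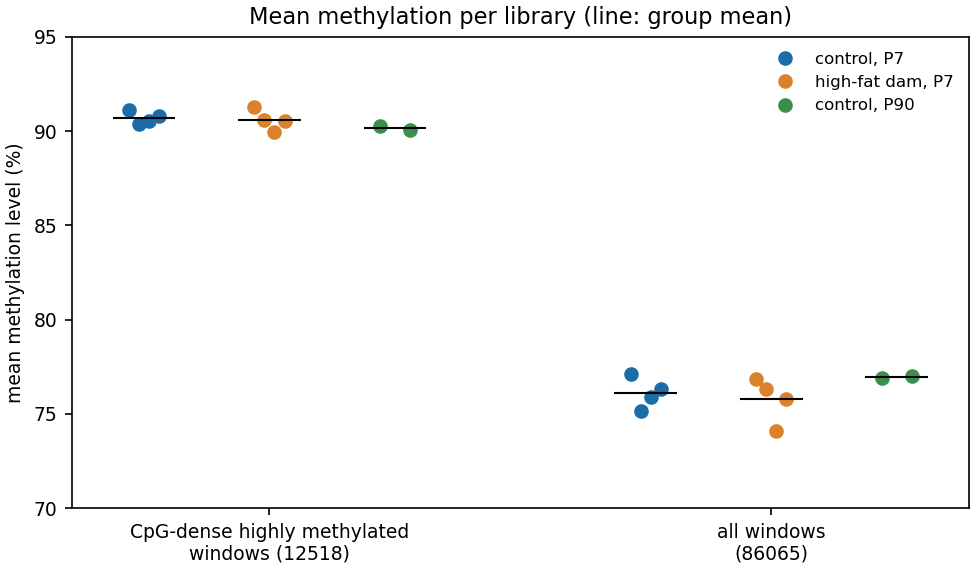
Mean methylation level (%) of each library, 1 point per library, over the CpG-dense highly methylated windows and over all windows, with a line at the group mean; the vertical axis starts at 70%. The 10 libraries lie between 90.0% and 91.3% in these windows and between 74.1% and 77.1% over all windows.

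Depth was 22087054 to 63677193 reads per library, with a median of 21 to 58 reads per site and 165 to 467 reads per window in these windows. The median SD of a window between the 4 control P7 libraries was 1.94 points, against 2.55 in sparser windows at 80% or more, 3.94 in dense windows at 60% to 80% and 3.00 over all windows. The sparser windows held fewer reads (median 145 against 266 per window), and the part of depth in these SDs was not tested. Over 17468 CpGs read on both strands the median difference was 2.43 points, and 94 (0.538%) differed by more than 20 points. Over all sites, with 68806 such CpGs, the median was 3.37 points and 4.76% differed by more than 20. Those CpGs had a lower mean level (75.3% against 91.2% on the plus strand), and the part of the level in this was not tested.

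Few of the sites read in these windows were low, and the filters set part of this. The windows were chosen at 80% or more. A CpG without a methylated read in any library is not listed there, so it drops out of the sites. In control P7, 57.7% of the sites in these windows were at 80% to 95% and 33.6% at 95% or more, with a median site level of 92.9%. Sites under 50% numbered 356 (0.329%). These low sites fell in 292 windows (2.33%). The lowest was position 99239993 on the plus strand of chromosome 4, at 4.92%, 2.13%, 6.15% and 14.3% in control P7 and at 10% and 15.9% in control P90, in a window at 82.0%. All 10 libraries were low there, and the site did not pass for age (adjusted p = 0.495). On chromosome 14, position 108945149 on the plus strand was at 6.98%, 9.09%, 13.6% and 10% in control P7, at 20.8%, 26.7%, 10.7% and 17.6% in high-fat P7 and at 44.0% and 44.1% in control P90. There both P90 libraries lay above all P7 libraries (adjusted p = 0.000407).

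Most of these windows stood alone: 11152 of them (89.1%) had no neighbouring window of the same kind, and 3851 (30.8%) had a measured adjacent window at all. Of those with 1, 35.5% had at least 1 neighbour of the same kind, and 1.14% had a neighbour under 20%. For dense windows under 20% that last share was 40.6%. The longest runs held 5 windows. The run chr5:24426001-24431000 (54 sites) was at 95.4%, 97.6%, 96.7% and 95.9% in control P7 and at 97.6% and 97.4% in control P90. The run chr19:55259001-55264000 (50 sites) was at 93.9% ± 0.688 (SD, n = 4) in control P7 and at 92.8% and 93.8% in control P90. In each of these runs 1 of the 5 windows passed for age (lowest adjusted p = 0.0332 and 0.00973). Of 4 runs of 4 windows the first by coordinate, chr3:165799001-165803000, was at 89.1% ± 0.836 (SD, n = 4), and none of its windows passed (lowest adjusted p = 0.232).

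Per megabase the windows were most frequent on chromosome 12 (14.3) and chromosome 20 (11.4), followed by chromosome 10 (7.96), and least frequent on chromosome 2 (2.55). As a share of the windows measured, chromosomes 20 and 12 were again the highest (19.6% and 18.3%) and chromosome 8 the lowest (12.7%). In the last 5 Mb of the chromosomes lay 5.72% of these windows and 5.36% of all windows.

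The 4 densest windows all lay on chromosome 1. In chr1:101002001-101003000, with 117 listed CpGs and 61 sites (1278 to 3716 reads), the level was 95.5%, 96.1%, 95.1% and 95.3% in control P7, 95.9%, 96.0%, 94.8% and 95.7% in high-fat P7 and 95.6% and 95.2% in control P90. The 10 libraries lay between 94.8% and 96.1%. Windows chr1:148444001-148445000 (116 CpGs) and chr1:72364001-72365000 (111 CpGs) were at 95.8% ± 1.85 and 95.8% ± 0.819 (SD, n = 4) in control P7. The densest of all, chr1:101783001-101784000 with 134 CpGs, was lower, at 87.2% ± 1.81 (SD, n = 4), with 83.6% and 81.3% in control P90. Both P90 libraries lay below all P7 libraries there, but the difference did not pass (adjusted p = 0.168).

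The windows that varied most between the 4 control P7 libraries held 3 sites each and few reads. In chr3:14058001-14059000 (30 to 95 reads) the libraries were at 81.8%, 55.6%, 90.0% and 94.4%. In chr7:117425001-117426000 (96 to 207 reads) they were at 92.4%, 60.4%, 90.7% and 93.8%, so 1 library made the spread. The other 2, chr1:273390001-273391000 and chr5:140495001-140496000, had SDs of 16.4 and 12.8 points. None of the 4 passed for age.

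At the edges of the rule, the 3 windows nearest below the threshold of 80% were at 79.98% to 79.996% over the high-fat P7 libraries, and the 3 nearest above it at 80.006% to 80.02%. In control P7 the former were at 79.8% to 84.3% and the latter at 74.7% to 83.3%. For the number of CpGs many windows tie, and the 3 lowest by coordinate, all on chromosome 1, stand for each side. Those with 17 listed CpGs (inside) were at 78.9% to 88.9% in control P7, and those with 16 (outside) at 81.3% to 90.7%.

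The change with age was compared in control-diet offspring, with 2 P90 against 4 P7 libraries, by a logistic model of methylated and unmethylated reads fitted to all 86065 windows, with p-values adjusted over all of them (Benjamini-Hochberg, threshold 0.05). Of the dense, highly methylated windows, 203 (1.62%) were higher and 706 (5.64%) lower at P90. The background over all windows was 13.1% called, with 7.84% higher and 5.25% lower. These windows thus passed less often than windows at large on the higher side, and about as often on the lower side. Their median level in control P7 was 91.7%, against 86.1% over all windows, so they had less room to rise. They also held more reads per window (median 266 against 168), and the part of level and depth in these shares was not tested. Age and the dissected range cannot be told apart, since the labels give another range for each age. The rule took its level at P7, so it sets part of this balance: a window that fell from above 80% is kept while one that rose from below 80% to above it is not. With windows chosen instead on the mean of both ages in controls (12506 windows, 12042 of them shared), 285 were higher and 532 lower, so 34.9% of the calls were higher in place of 22.3%. This alternative was added after seeing the data. With the spread of each window taken alone, 0 windows passed (1171 at an unadjusted p under 0.05), and with all 8 control libraries and a term for the set 0 of 2085 (123 at an unadjusted p under 0.05). Without 1 of the 2 P90 libraries, 75 or 81 windows were higher and 462 or 440 lower; there the lone P90 library is assumed to vary like the P7 libraries.

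The median level of the windows called lower was 89.7% in control P7 and 78.7% in control P90, and 346 of the 706 differed by at least 10 points, 45 by at least 20 and 2 by at least 30. For those called higher it was 86.3% and 93.6%, and 31 of the 203 differed by at least 10 points. Both P90 libraries lay below all 4 P7 libraries in 1725 of the 12518 windows (13.8%, against 12.4% of all windows) and above them in 1333 (10.6%, against 18.2%). Among the called windows the ages did not overlap in 671 of those lower and 189 of those higher. Over all members the median difference was 0.0224 points, against 0.518 over all windows, so the middle of the distribution lay near 0. Within the called windows the sites mostly moved together: 89.7% of the 6684 sites in windows called lower were lower at P90, and in 373 windows every site was. In windows called higher 88.9% of 1911 sites were higher, and in 94 windows every site was. These shares describe the calls and are no further test of them.

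Sparser windows at 80% or more had 1.49% higher and 4.39% lower, against 1.62% and 5.64% of the dense ones. The sparser windows held fewer reads (median 145 against 266 per window) and fewer sites (4 against 8). The part of depth in these shares was not tested. Dense windows at 60% to 80% had 8.25% higher and 9.73% lower, and dense windows under 20% had 37.6% higher and 1.08% lower. Among the dense, highly methylated windows the shares called fell with the level used by the rule, from 4.29% higher and 9.12% lower at 80% to 85% down to 0.622% and 1.48% at 95% and more. With the number of listed CpGs, there was no steady course: the shares were 1.89% higher and 5.58% lower at 17 to 24 CpGs, 1.10% and 5.75% at 25 to 34, 1.35% and 6.42% at 35 to 49, and 0.394% and 3.15% at 50 or more, where 254 windows gave 1 and 8 calls.

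**Figure D3:**
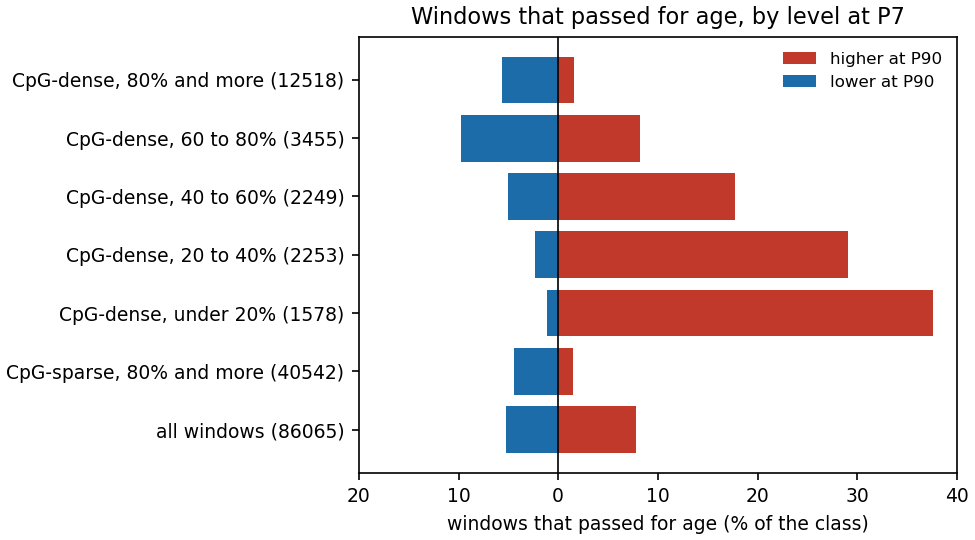
Share of windows that passed for age (%), to the right higher and to the left lower at P90, for dense windows by their level at P7 over the high-fat libraries, for sparser windows at 80% or more and for all windows, with the number of windows in brackets. Dense windows at 80% or more have 1.62% higher and 5.64% lower, and all windows 7.84% and 5.25%.

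**Figure D4:**
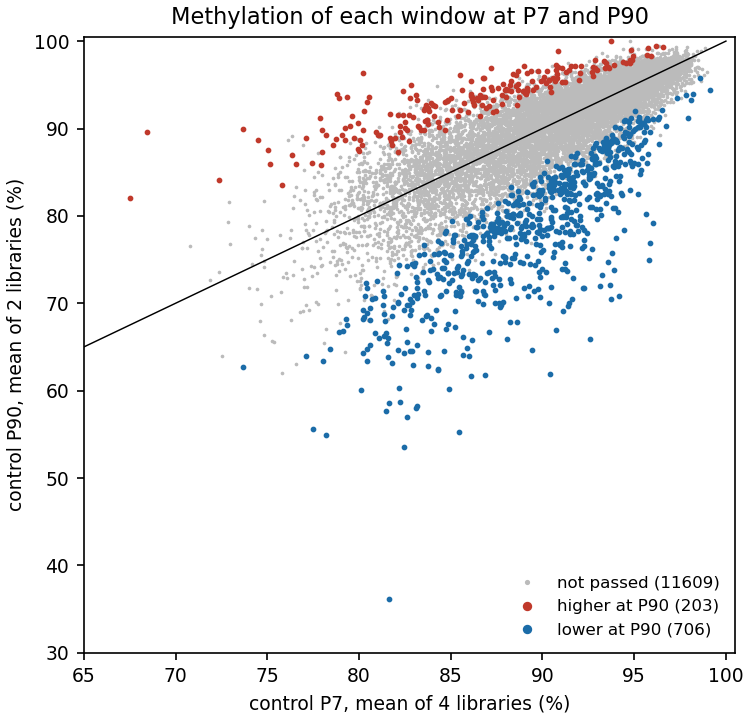
Mean methylation level (%) of each of the 12518 windows in control P7 (4 libraries) against control P90 (2 libraries), with windows that passed coloured by direction and the line of equality. The 706 windows called lower reach farther from the line than the 203 called higher, down to 36.2% at P90.

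The direction of a call was more frequent next to called windows. Of 246 measured windows next to a window called lower, 17.5% were called lower and 3.66% higher. Of 64 next to a window called higher, 14.1% were called higher and 4.69% lower. Next to windows that did not pass, 4.21% of 3967 were called higher and 4.87% lower. Adjacent windows can share DNA fragments at their border, so they are not independent.

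The window with the smallest p among those lower, chr10:86687001-86688000 (169 to 467 reads), went from 83.8%, 78.7%, 87.4% and 76.6% in control P7 to 40.5% and 31.9% in control P90, while high-fat P7 was at 84.1%, 89.2%, 86.1% and 84.0%. Both P90 libraries lay far below the 8 P7 libraries (adjusted p = 3.16e-11), and each of the 13 sites, which span 143 bp, passed by itself. A sparser window 2 places before it, chr10:86685001-86686000, was also lower at P90 (85.1% to 65.8%, adjusted p = 0.00871). Of the 12 windows named for age, 3 others had a measured window within 2 places. Near chr5:168418001-168419000 it was also higher (27.4% to 38.3%, adjusted p = 0.0295), and those near chr13:101252001-101253000 (2.77 points, adjusted p = 0.235) and chr1:81935001-81936000 (-1.75 points, adjusted p = 0.605) did not pass. In chr1:240931001-240932000 (11 sites) the level was 93.2%, 94.8%, 92.6% and 94.3% in control P7 and 66.4% and 74.6% in control P90 (adjusted p = 4.08e-09), with all 11 sites lower. In chr8:49123001-49124000 (12 sites) it was 90.2%, 90.6%, 90.7% and 94.4%, and 66.4% and 73.7% at P90 (adjusted p = 4.15e-08).

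In chr3:155188001-155189000, with 40 listed CpGs, all 18 sites over 830 bp were lower, from 91.5%, 90.9%, 91.5% and 90.5% in control P7 to 75.4% and 72.4% in control P90 (adjusted p = 8.25e-08). In chr16:80778001-80779000 (8 sites) the level went from 96.0% ± 1.44 (SD, n = 4) to 80.5% and 77.9% (adjusted p = 1.60e-08). The last, chr10:15277001-15278000 (13 sites, of which 12 were lower), went from 85.5% ± 2.99 (SD, n = 4) to 53.7% and 56.7%.

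The 6 windows called higher with the smallest p were between 68.4% and 83.1% in control P7 and between 89.6% and 94.9% in control P90. In chr5:168418001-168419000 (13 sites, all higher) the level was 82.6%, 79.3%, 72.6% and 80.8% in control P7 and 95.2% and 92.7% in control P90 (adjusted p = 9.10e-06). In chr18:71468001-71469000 (11 sites, all higher) it was 82.8%, 82.1%, 81.5% and 83.2%, and 94.6% and 93.9% at P90 (adjusted p = 1.97e-05). The 8 P7 libraries there lay between 79.2% and 83.2%. In chr16:83798001-83799000 all 12 sites were higher, from 83.1% ± 1.98 (SD, n = 4) to 92.5% and 93.9% (adjusted p = 7.85e-05), and in chr10:15777001-15778000 all 5, from 82.8% ± 4.64 to 95.5% and 94.4% (adjusted p = 0.000187).

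In the other 2 windows of this group 1 site passed by itself, with a difference far above that of its window. In chr1:81935001-81936000 (80.5% ± 3.42 to 91.9% and 95.3%, adjusted p = 0.000399) 3 of 6 sites were higher and 3 lower. The plus-strand site at position 81935147 was at 33.3%, 36.7%, 2.22% and 3.03% in control P7, at 62.3%, 61.5%, 45.0% and 55.6% in high-fat P7 and at 95.2% and 97.1% in control P90 (30 to 69 reads per library). The 3 groups did not overlap at this site, and the control P7 libraries fell into a pair above 30% and a pair below 5%. In chr13:101252001-101253000 (3 sites) control P7 was at 69.7%, 66.3%, 70% and 67.8%, high-fat P7 at 85.8%, 83.2%, 79.8% and 87.2%, and control P90 at 86.8% and 92.4% (adjusted p = 3.25e-05). There high-fat P7 lay above control P7, which is how a window under 80% in control P7 met the rule.

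**Figure D5:**
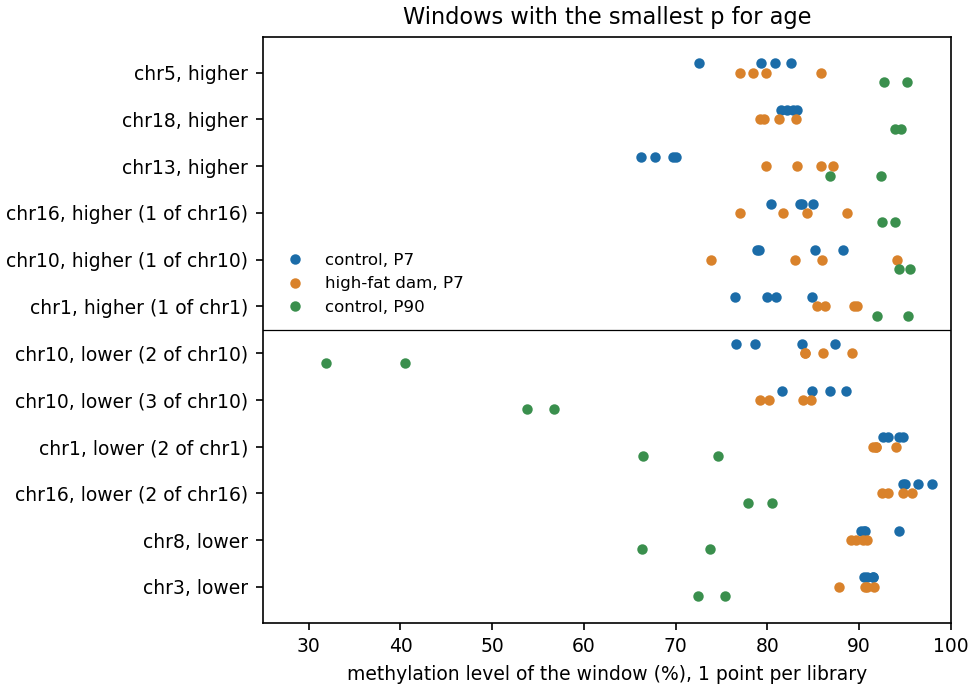
Methylation level (%) of the 6 windows with the smallest p in each direction, with 1 point per library for control P7, high-fat P7 and control P90. In the windows called lower both P90 libraries lie below all 8 P7 libraries, and in those called higher above all 4 control P7 libraries.

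Among the 39 windows with a placed promoter, 3 passed for age, 2 lower and 1 higher, against 7.26% of all the dense, highly methylated windows and 13.1% of all windows. That count is near the background. Fbxo40, a muscle F-box protein of a ubiquitin ligase, lies at chr11:66714001-66715000. Its promoter (12 sites, 292 to 1019 reads) was at 87.2%, 82.9%, 84.7% and 80.9% in control P7, 82.5%, 83.0%, 78.4% and 86.0% in high-fat P7, and 68.1% and 67.4% in control P90. Both P90 libraries lay below all P7 libraries, the 12 sites were all lower, and the window passed with adjusted p = 1.85e-05. At the CpG 19 bases before the start the plus strand was at 78.1% in control P7 and 57.1% in control P90, and the minus strand at 72.3% and 49.5%. Of these 2 sites the minus-strand one passed by itself.

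Fgd3, an exchange factor of the GTPase CDC42, lies at chr17:15749001-15750000. Its promoter (23 sites, 588 to 2029 reads) was at 82.6%, 84.2%, 76.1% and 81.0% in control P7, 86.3%, 83.0%, 75.9% and 78.7% in high-fat P7, and 74.0% and 71.1% in control P90. The P90 libraries lay below the P7 libraries by a smaller margin (adjusted p = 0.0156), and 21 of 23 sites were lower with none passing by itself. The third was the lncRNA gene LOC134483939 at chr20:31695001-31696000, at 82.2%, 72.7%, 83.6% and 80.4% in control P7 and 89.9% and 87.9% in control P90 (adjusted p = 0.0248). The call for Fgd3 was lost in 4 of 11 alternatives and that for LOC134483939 in 5 of 11, with adjusted p up to 0.326 and 0.319. For Fbxo40 it was lost in 1.

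Tested one by one, 333 sites of these windows (0.308%) were higher and 1346 (1.24%) lower at P90. The background over all 581521 sites was 3.86% called, with 2.53% higher and 1.34% lower. With the spread of each site taken alone 0 sites passed (2819 at an unadjusted p under 0.05), with the title numbers as a block 3 were higher and 2 lower, and without 1 of the P90 libraries 65 or 64 were higher and 572 or 489 lower. The p-values of sites rest almost wholly on a spread shared over sites, so a site where libraries of 1 age differ gets a p that is too small. This shows among the sites with the smallest p. At position 16:83321318 on the minus strand control P7 was at 91.5%, 89.3%, 93.9% and 97.6%, and control P90 at 41.3% (exact 95% binomial interval 27.0% to 56.8%) and 3.08% (0.375% to 10.7%). At 18:52269642 (minus strand) the P90 libraries were at 47.2% (35.3% to 59.3%) and 1.25% (0.0316% to 6.77%), with control P7 at 93.6% ± 2.85 (SD, n = 4), and at 7:10065306 (minus strand) at 45.8% (31.4% to 60.8%) and 2.22% (0.0562% to 11.8%), with control P7 at 87.5% ± 5.83. At these 3 sites the intervals of the P90 libraries did not overlap, the second library being the lower each time. A high-fat P7 library stood apart at 2 of them (51.2% and 41.5%). The DNA sequence of the animals at single sites is not known here, and what set the libraries apart was not tested.

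At the fourth of these sites, 17:15761691 on the plus strand, both P90 libraries were alike, at 40.4% and 44.6%, against 96.1% ± 1.11 (SD, n = 4) in control P7 and 98.0% in high-fat P7 (adjusted p = 1.18e-15). Its window, chr17:15761001-15762000, was at 89.7% at P7 and 74.8% at P90. Of the sites called higher, 16:59032 on the plus strand was at 42.0%, 35%, 55.1% and 36.6% in control P7 and at 95% and 92.7% in control P90, and 16:25943359 on the minus strand at 59.3% ± 6.93 (SD, n = 4) and at 96.2% and 100%. At both, high-fat P7 (43.0% and 62.6%) was near control P7. The intervals cover counting error only, since PCR copies of a molecule cannot be told from separate molecules.

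The diet of the dam at P7 was compared in the libraries that include those used by the rule, so the counts only describe. Of the 12518 windows 0 passed in either direction in the logistic model, and 0 in edgeR and in limma. The background was 6 of 86065 windows (0.00697%), with 0.00232% higher and 0.00465% lower. At an unadjusted p under 0.05 there were 520 of the windows (4.15%) and 4.66% of all windows, and the lowest adjusted p was 0.0834, that of chr13:101252001-101253000. The median difference, high-fat minus control, was -0.138 points, against -0.298 over all windows.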

How the data were processed

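All 16 libraries were prepared with NuGEN's Ovation kit for RRBS from amygdala DNA, according to the labels. The authors deposited, for each library, counts of methylated and unmethylated reads at single CpG cytosines, not normalized. Positions follow Rnor_6.0 (from the submitters' processing notes). The aligner is not given in the sources used here. The lowest methylated count in any file is 1, so unmethylated CpGs go unlisted and levels are biased upward.

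Sites with at least 10 reads in all 10 libraries were grouped into windows of 1000 bp, and a level is the methylated share of a window's summed reads. A logistic model was fitted to each window or site, with a two-sided quasi-likelihood F test. The Pearson dispersion, at least 1, was moderated over all features along a trend (squeezeVar of limma 3.58.1, robust); the shared spread weighed 34.0 degrees of freedom against 4 of the window itself. Benjamini-Hochberg adjustment ran over all windows or all sites, threshold 0.05. The model was also run on simulated counts in which every window had the same extra spread between libraries. That run does not show how the model behaves where the spread differs between windows.

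RefSeq promoters (300 bases, 33469 in the table) were placed where 5 consecutive CpGs had the spacing of CpGs listed in at least 3 libraries. A placement needed at least 8 matching CpGs, at least 3 of them read in all 10 libraries and no read CpG that did not match. Its score was the matching CpGs times log10(299 / the promoter's CpG number) less the listed CpGs that did not match, and had to reach 11. Of placements scoring 5 to 6, 6.67% fell on the gene's chromosome. This step was added after the files were seen.

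Named were the 6 windows and 4 sites of smallest p in each direction, the 4 windows with most CpGs, the 4 with the widest control P7 range, the 3 longest runs (ties by coordinate), the 4 lowest sites and windows at the thresholds. Promoters were named after their values were seen. Members and lists were chosen with earlier results of these data known. Alternatives included edgeR 4.0.16 and limma on log2 ratios, each count raised by 1. Scripts ran in Python 3.11.15 (with numpy 2.4.6, pandas 2.3.3, scipy 1.17.1) and in R 4.3.3.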

Additional observations from a re-analysis of the deposited data

Results flagged for a closer look

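In 62 values of windows, sites and promoters given by library, each P7 group of 4 was examined for a library whose gap to the others, as a share of the range, passed Dixon's critical value. Chance flags about 1 in 20 groups that were not selected, and 5 of 124 (4.03%) were found. Many of these windows and sites were picked by their range or their p, so the rates cannot be compared. High-fat replicate 1 stood at 94.0% in chr1:240931001-240932000, with the others at 91.5% to 91.9%. Control replicate 4 stood at 94.4% in chr8:49123001-49124000 (others 90.2% to 90.7%). Control replicate 2 stood at 89.9% in chr1:101783001-101784000 (others 86.0% to 86.5%) and at 60.4% in chr7:117425001-117426000 (others 90.7% to 93.8%). High-fat replicate 2 stood at 51.2% at site 18:52269642, with the others at 93.3% to 100%.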

How the results depend on the processing

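Counts of windows higher and lower at P90 (203 and 706) became 117 and 445 with a minimum of 20 reads, 48 and 247 with at least 25 listed CpGs, 62 and 287 at a level of at least 90%, 31 and 346 with a difference of at least 10 points and 63 and 250 in limma; the first 4 keep fewer windows. They were 193 and 609 in edgeR. With each window's own dispersion they were 0 and 0 (1171 windows at an unadjusted p under 0.05). With all 8 control libraries and a set term they were 0 and 0 of 2085 windows (123 at an unadjusted p under 0.05), where the 6 control libraries of the first set gave 27 and 47 on the same sites; the cause was not tested. Leaving out a library gave 75 to 212 windows higher and 440 to 686 lower, the lowest counts without control P90 replicate 1 (75 and 462) or 2 (81 and 440), where the lone P90 library is assumed to vary like the P7 libraries. The mean difference of -0.549 points became -0.102 when windows were chosen on both ages, and was -0.661 to -0.407 when a library was left out. In the 2085 windows with sites read in all 8 controls it was -0.158, taken over the 6 control libraries of the first set only. The number of windows became 7537 with 20 reads, 4299 with 25 listed CpGs and 7628 at 90%.

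Sites lower at P90 fell to 883 with 20 reads. With own dispersion 0 sites passed in either direction (2819 at an unadjusted p under 0.05). Leaving out a library gave 64 to 301 sites higher and 489 to 1192 lower, the fewest without control P90 replicate 1 (65 and 572) or 2 (64 and 489). Diet counts were 0 or 1 in each direction when a library was left out, with 1 higher without control replicate 2 or high-fat replicate 3 and 1 lower without control replicate 4 or high-fat replicate 1. Titles give numbers 3 and 4 to libraries of both ages, and libraries with the same number did not deviate together (r of -0.0227 and -0.0466 across windows). With these numbers as a replicate block, 130 windows were higher and 498 lower, and 3 sites were higher and 2 lower. There the directions and the mean difference (-0.592 points) were taken over the pairs with the same number only. Control P7 replicates 3 and 4 do not enter those differences. Of 39 promoters placed, 15 remained at a score of at least 14, where Ddx4, Fbxo40 and Six6os1 were lost and Spaca1 and Fgd3 kept, and 34 with at least 5 CpGs read. The 15 windows tracked by name kept their direction with the replicate block and with each library left out; the other 4 alternatives change only the test. All 15 lost the call with their own dispersion, 2 in limma, and at most 2 when a library was left out.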

Other observations

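The 6 libraries of the other set (2 control P90 and 4 high-fat P90) read 11.2% to 36.0% of the sites of the dense, highly methylated windows at least 10 times. Their mean level there was 94.7% and 95.7% in control P90 and 96.1%, 97.0%, 96.4% and 96.4% in high-fat P90. At the same sites the control libraries of the first set were at 90.8% to 91.1%. Of the sites read, 77.0% to 83.5% were at 100% in each of these 6 libraries, against 14.1% to 15.4% in the first control P90 library at the same sites. All 4 high-fat P90 libraries belong to this set, with only 2 of control P90, and diet at P90 was not compared in these windows.

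Repeated CpG spacing, with at least 80% of CpGs found again at 1 distance of 20 to 500 bp, was seen in 5 of the 12518 windows (0.0399%). In other dense windows it was seen in 1 of 3455 at 60% to 80%, 0 of 2249 at 40% to 60%, 1 of 2253 at 20% to 40% and 0 of 1578 under 20%. At least 8 CpGs with room for the distance were needed. The measure sees only a fixed spacing inside a window, so it does not show how many windows lie in repeats.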
